A study of Mus musculus with 6 samples.

Results

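The enzymes and complexes that write, erase and read marks on DNA and histones were followed in cultured CD8+ T cells (CD8-TC) with and without Runx3. The group was a list of 37 named genes, taken for their function in chromatin and DNA methylation. It was drawn up with earlier results of these arrays known. For each gene the array row that carries its symbol alone, and of several such rows the brightest, was used. A row was found for 36 of the 37, and all 36 passed the filter on dim genes, among 10021 genes tested of 19938 with a row. Suv39h1, an H3K9 methyltransferase, was not analysed here.

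RNA came from splenic CD8-TC of ICR mice, labelled male and aged 6 weeks, that were Runx3 +/+ (WT) or Runx3 -/- (KO). There were 3 arrays of biological repeats per genotype (WT1 to WT3 and KO1 to KO3). All cells were picked with magnetic anti-CD8 beads, stimulated with anti-CD3 and anti-CD28 for 2 days, and kept in IL-2 at 100 units per ml for 4 days. KO cells alone also went through FACS sorting, first to take out dendritic cells positive for CD11c and CD8, and after culture to take out CD4+CD8- cells, so that genotype and this sorting cannot be told apart. The sources used here do not give the disrupted part of Runx3. All values are RMA log2 signals, differences are KO minus WT, errors are standard errors (SE) from limma, and levels of different genes are not compared, since each array row has its own response.

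Polycomb complex 2 places methyl groups on lysine 27 of histone H3 (H3K27), and Polycomb complex 1 binds that mark and puts ubiquitin on histone H2A. DNA methyltransferases add methyl groups to cytosine, and Tet enzymes oxidise them as a step towards their removal. In CD8-TC these systems are known for silencing genes of other lineages and for separating effector from memory programmes as activated cells divide.

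Some facts of the arrays bear on every value. Array medians lay between 4.15 and 4.35, and the number of arrays limits the precision. Runx3 itself stood at 8.77, 8.26 and 9.16 in WT1 to WT3 and at 8.91, 9.11 and 9.27 in KO1 to KO3, so its row did not tell the genotypes apart, and KO below means the arrays labelled so. Whether the row lies in the disrupted part was not tested. WT1, labelled male, had Xist at 10.6 against 3.31 to 3.40 on the other arrays. The Y-linked Eif2s3y stood at 3.93 on WT1 and at 9.24 to 9.39 on the others. Both RNAs go against the label of WT1, and the part of sex in the differences was not tested. The 7 CD8-TC markers with a row lay at 9.87 or above on every array, whereas 7 of 8 dendritic cell markers and all 7 macrophage or granulocyte markers with a row were below the median of the table, 4.26, throughout. The exception among the former was Cd74, at 3.49 to 4.13 in WT and at 5.74, 4.24 and 3.95 in KO. Of 5 B cell markers with a row 3 were below the median throughout, among them Cd79a, at 3.16 to 3.28 in WT and 3.47 to 3.52 in KO. Cd79b stood at 5.53 to 6.12 in WT and at 4.64 to 5.21 in KO, and Ighm at 4.02 to 4.21 in WT and 3.91 to 4.39 in KO. The summed level of 5 NK cell markers was 26.2 to 27.2 in WT and 22.0 to 24.0 in KO. Ncr1 and Klra8 were below the median throughout, and Klrb1c stood at 4.34 to 5.94 in WT and 3.74 to 3.77 in KO. Itga2 stood at 4.94 to 5.27 in WT and 4.87 to 5.85 in KO. Eomes stood at 8.87 to 9.74 in WT and 5.79 to 8.69 in KO. The study also names Eomes as acting with Runx3 in the maturation of CD8-TC, so the sum is not one of NK cells alone. The summed level of 3 CD4 T cell markers was 16.8 to 18.1 in WT and 17.7 to 20.0 in KO. Cd4 stood at 5.29 to 6.50 in WT and 6.70 to 6.95 in KO. Zbtb7b stood at 5.24 to 5.85 in WT and 5.70 to 6.56 in KO, and Foxp3 at 5.52 to 6.70 in WT and 5.33 to 6.70 in KO. The study itself reports increased Cd4 in resting CD8-TC upon loss of Runx3. The part of these markers, some named after their values were seen, in the results was not tested. In such bulk RNA, fewer cells of a type and less RNA per cell cannot be told apart.

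Promoters are shown for 4 of the 5 genes that passed the threshold of the study (1.5-fold, with p below 0.05 before adjustment) and for Ezh2, which went with the cell cycle genes of array KO2. Each is the RefSeq window (GRCm38.p6) from 250 bases before to 50 after the start site furthest upstream, on the gene's own strand. Capitals mark, on either strand, letters that a RUNX factor is known to bind, which were TGTGGT and the variant TGCGGT, or with another last base TGTGGC and the variant TGCGGC. They also mark letters of an E2F site, either TTCCCGC or the variant TTGGCGC. The windows are chr10:62887275-62887574 for Tet1, chr6:83441629-83441928 for Tet3, chr15:79932597-79932896 for Cbx7, chr5:122989050-122989349 for Kdm2b and chr6:47594981-47595280 for Ezh2, all on the minus strand.
Tet1: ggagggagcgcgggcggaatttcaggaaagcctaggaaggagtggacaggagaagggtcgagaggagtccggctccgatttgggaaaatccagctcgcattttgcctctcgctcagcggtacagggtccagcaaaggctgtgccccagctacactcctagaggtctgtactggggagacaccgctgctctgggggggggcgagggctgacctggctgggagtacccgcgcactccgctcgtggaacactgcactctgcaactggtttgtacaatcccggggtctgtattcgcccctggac
Tet3: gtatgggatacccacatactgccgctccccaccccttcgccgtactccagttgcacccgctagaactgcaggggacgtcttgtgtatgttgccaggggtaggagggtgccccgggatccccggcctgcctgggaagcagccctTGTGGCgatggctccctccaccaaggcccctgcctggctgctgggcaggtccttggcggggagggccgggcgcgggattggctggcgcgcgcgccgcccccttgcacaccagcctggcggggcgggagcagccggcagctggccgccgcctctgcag
Cbx7: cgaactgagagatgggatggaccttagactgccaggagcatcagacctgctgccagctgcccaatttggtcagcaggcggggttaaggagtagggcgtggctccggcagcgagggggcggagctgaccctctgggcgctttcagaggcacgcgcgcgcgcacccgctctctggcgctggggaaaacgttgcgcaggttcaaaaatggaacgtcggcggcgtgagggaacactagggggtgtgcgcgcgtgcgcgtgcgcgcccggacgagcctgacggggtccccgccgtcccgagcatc
Kdm2b: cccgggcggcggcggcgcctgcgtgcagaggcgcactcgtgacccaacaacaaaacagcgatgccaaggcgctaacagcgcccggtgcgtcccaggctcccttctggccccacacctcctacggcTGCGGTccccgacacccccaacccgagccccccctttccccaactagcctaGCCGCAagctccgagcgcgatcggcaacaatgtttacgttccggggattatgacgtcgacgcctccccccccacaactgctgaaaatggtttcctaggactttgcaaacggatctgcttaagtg
Ezh2: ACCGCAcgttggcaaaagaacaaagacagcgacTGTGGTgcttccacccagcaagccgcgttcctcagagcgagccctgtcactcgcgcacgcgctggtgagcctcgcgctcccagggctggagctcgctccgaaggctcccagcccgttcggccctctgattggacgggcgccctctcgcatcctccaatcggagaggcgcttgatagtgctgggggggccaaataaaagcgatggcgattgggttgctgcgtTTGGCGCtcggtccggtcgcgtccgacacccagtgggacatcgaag

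The Tet1 and Cbx7 windows held none of these letters. The Tet3 window had TGTGGC at -107 from the start site, and that of Kdm2b, the most upstream of 4 windows of the gene, had TGCGGT at -125 and TGCGGC on the other strand at -74. The Ezh2 window had TGCGGT on the other strand at -250, TGTGGT at -217 and the E2F letters TTGGCGC at +5. RUNX letters stood in 17 of the 33 members with a window (51.5%) and in 45.3% of 27025 promoters of the same length. E2F letters stood in 3 of 33 (Ezh2, Suz12 and Suv39h2, 9.09%) and in 6.96% of all promoters. The members' windows had a median of 30 CG dinucleotides against 7 over all promoters, with 17 in Tet1 and 33 in Cbx7. Kdm6b is named only. A run of letters is a description of the window and not a site of binding.

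None of the regulators passed the adjusted threshold, and 5 were higher in KO at the study's threshold. Of 36 members, 29 had a positive difference and 7 a negative one, 80.6% positive against 48.0% of all tested genes. The median difference was 0.29, and that of all tested genes was -0.01. The mean deviation of the members from their own averages was -0.08, -0.27 and -0.06 on WT1 to WT3 and 0.11, 0.04 and 0.27 on KO1 to KO3. At an adjusted p of 0.05, limma called 0 members, where 0.629% of all tested genes were called. The lowest adjusted p was 0.124, for Cbx7, apart from 0.100 for Tet1, which entered the test only through its KO arrays. At an unadjusted p of 0.05 there were 8 members higher and 0 lower, namely Dnmt3a, Tet1, Tet3, Cbx7, Kdm2b, Setdb1, Kdm6b and Arid1a, where 6.96% of all tested genes were higher and 7.14% lower.

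The study's threshold was passed by Tet1, Tet3, Cbx7, Kdm2b and Kdm6b. These 5 higher members are 13.9% of the list, where 3.97% of all tested genes were called higher. In the other direction 0 members were called, where 4.33% of all tested genes were. Groups did not overlap, with KO above WT, for 10 members (27.8%), where 11.6% of all tested genes lay so, and for 0 members with KO below WT, where 10.9% did. The 10 were Dnmt3a, Tet1, Bmi1, Cbx7, Kdm2b, Setdb1, Ehmt1, Kdm6b, Smarca2 and Chd4. Since the list was drawn up with earlier results of these arrays known, these shares are given as a description with no test of the list. They count Tet1, which passed the filter on dim genes only through KO1 and KO3. When the mean of the 6 arrays had to reach the table's median, Tet1 was not tested, and of 35 members 4 were higher at the study's threshold, where 4.12% of all tested genes were. In that fit 9 members did not overlap, and the share of all tested genes without overlap was not counted.

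**Figure D1:**
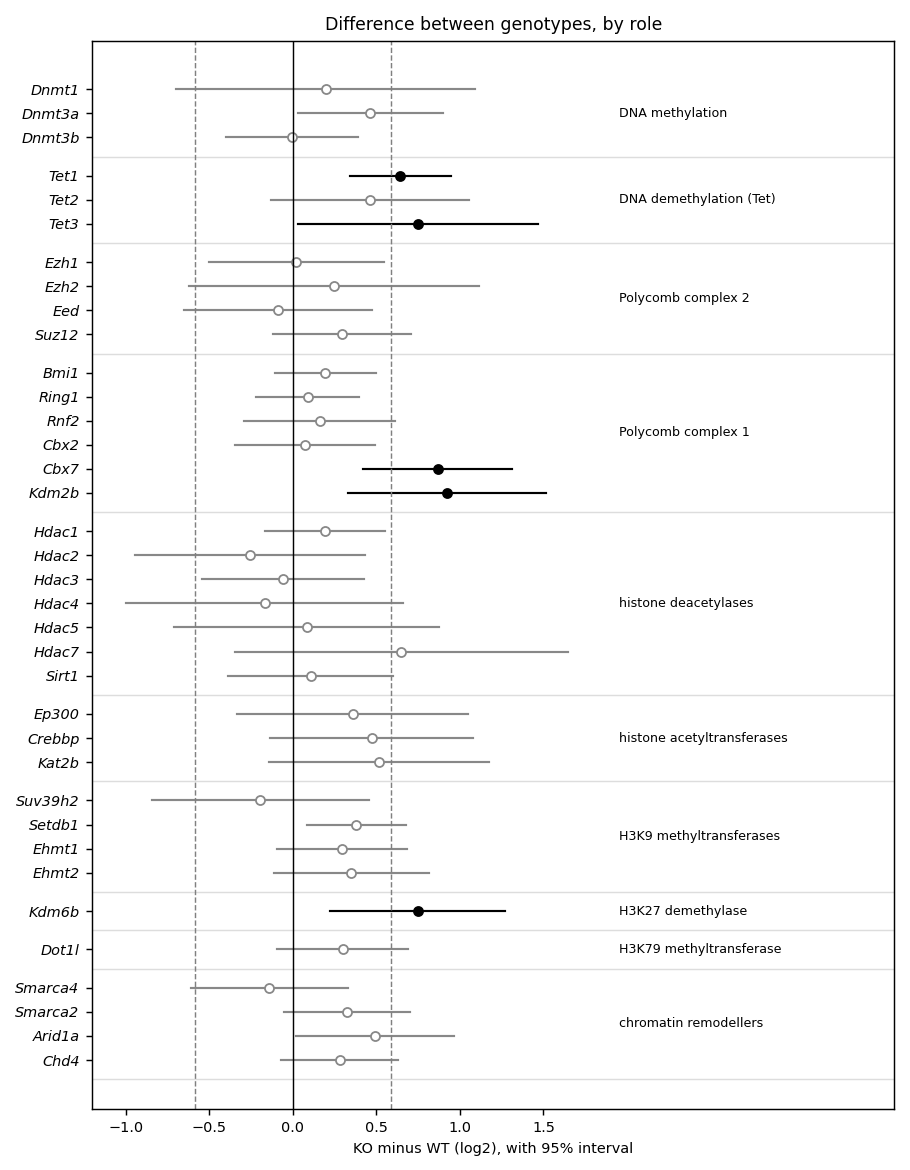
Difference between KO and WT (log2, horizontal axis) for the 36 members grouped by role, with points for the difference, lines for the 95% interval from limma, filled points for members past the study's threshold and dashed lines at 1.5-fold. Most points lie to the right of 0, and the 5 members past the study's threshold have differences from 0.64 to 0.92.

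Among the DNA methyltransferases no call was made, and the members differed from each other. Dnmt3a, which sets new methylation, stood at 6.29, 6.07 and 6.45 in WT and at 7.02, 6.55 and 6.62 in KO. All KO arrays were above all WT arrays, KO1 the furthest, and the difference was 0.46 (SE 0.18, adjusted p 0.325), below 1.5-fold. Dnmt3b, the other enzyme for new methylation, was dim at 4.40 to 4.82 on all arrays, with a difference of -0.01 and a 95% interval of -0.40 to 0.39, inside a 1.5-fold change either way. Dnmt1, which copies methylation onto new DNA strands, had a difference of 0.20 with an interval of -0.70 to 1.09, so a change of 1.5-fold in either direction could not be told from none.

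The Tet enzymes, which oxidise methylcytosine, all had positive differences, and Tet1 and Tet3 passed the study's threshold. Tet1 stood at 3.63, 3.63 and 3.77 in WT and at 4.33, 4.23 and 4.40 in KO. The groups were apart with a narrow spread in each, at a low level, since every WT array and KO2 were below the table's median. The difference was 0.64 (SE 0.13, 95% interval 0.34 to 0.95, adjusted p 0.100). For such a gene, the filter itself requires a difference between the groups. The gene's other rows gave 0.84 and 0.42, the latter dim on all arrays.

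Tet3 stood at 6.82, 6.02 and 7.01 in WT and at 6.96, 7.52 and 7.62 in KO. WT2 was the lowest array by far, and KO1 lay below WT3, so the groups overlapped. The difference was 0.75 (SE 0.30, 95% interval 0.03 to 1.47, adjusted p 0.333), and the gene's other row gave 0.61. Without WT2 it was 0.45 and the call was lost, as it also was without WT1 (0.85), KO2 (0.67) or KO3 (0.62). Tet2, whose loss is known to promote the growth of blood cell clones, had a difference of 0.46 (adjusted p 0.445), and all arrays but WT2, at 5.37, lay between 5.98 and 6.53.

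The core of Polycomb complex 2 gave no call. Suz12, a scaffold of the complex, had the smallest p of the 4, with 9.36, 9.57 and 9.12 in WT and 9.74, 9.43 and 9.77 in KO. KO2 fell within the range of WT while KO1 and KO3 were above it, and the difference was 0.29 (SE 0.17, adjusted p 0.483). The methyltransferase Ezh2 had a difference of 0.25 (95% interval -0.62 to 1.12), and Eed, which binds the finished mark, of -0.09 (-0.65 to 0.47). Ezh1, the paralog of Ezh2 that resting cells also use, had a difference of 0.02, and its interval of -0.50 to 0.55 lay within a 1.5-fold change.

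Polycomb complex 1 held the largest differences of the list, in Kdm2b and Cbx7. Cbx7, a chromodomain protein that reads methylated H3K27, stood at 5.95, 5.80 and 6.00 in WT and at 6.43, 7.05 and 6.87 in KO. The WT arrays had an SD of 0.11, and every KO array was above them. The difference was 0.87 (SE 0.19, 95% interval 0.42 to 1.31, adjusted p 0.124), a fold of 1.82.

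Kdm2b, which brings a variant of the complex to unmethylated CG-rich DNA and is also a histone demethylase, stood at 6.71, 6.31 and 6.93 in WT and at 7.32, 7.37 and 8.02 in KO. KO3 was the highest array, and no KO array reached down to WT. The difference was 0.92 (SE 0.25, 95% interval 0.33 to 1.51, adjusted p 0.200), a fold of 1.90 and the largest of the 36 members. Both calls stood in all 17 other fits, with differences of 0.67 to 1.04 for Cbx7 and 0.70 to 1.09 for Kdm2b.

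The other 4 members of complex 1 differed little. Bmi1, a partner of the ubiquitin ligases, had KO at 7.25 to 7.38 and WT at 7.03 to 7.20, which did not overlap, with a difference of 0.20 (adjusted p 0.519). The ligases Ring1 and Rnf2 had differences of 0.09 and 0.16, and Cbx2, another chromodomain reader, of 0.07. The 95% intervals of Bmi1, Ring1 and Cbx2 lay within a 1.5-fold change, and that of Rnf2 ran from -0.29 to 0.61.

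Kdm6b (also known as Jmjd3), which removes methyl groups from H3K27 and so undoes the work of complex 2, stood at 5.34, 5.70 and 5.56 in WT and at 5.83, 6.48 and 6.53 in KO. KO1 was the lowest KO array, yet above all of WT. The difference was 0.75 (SE 0.22, 95% interval 0.22 to 1.27, adjusted p 0.230), and it passed the study's threshold in all 17 other fits, with 0.62 to 0.97.

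**Figure D2:**
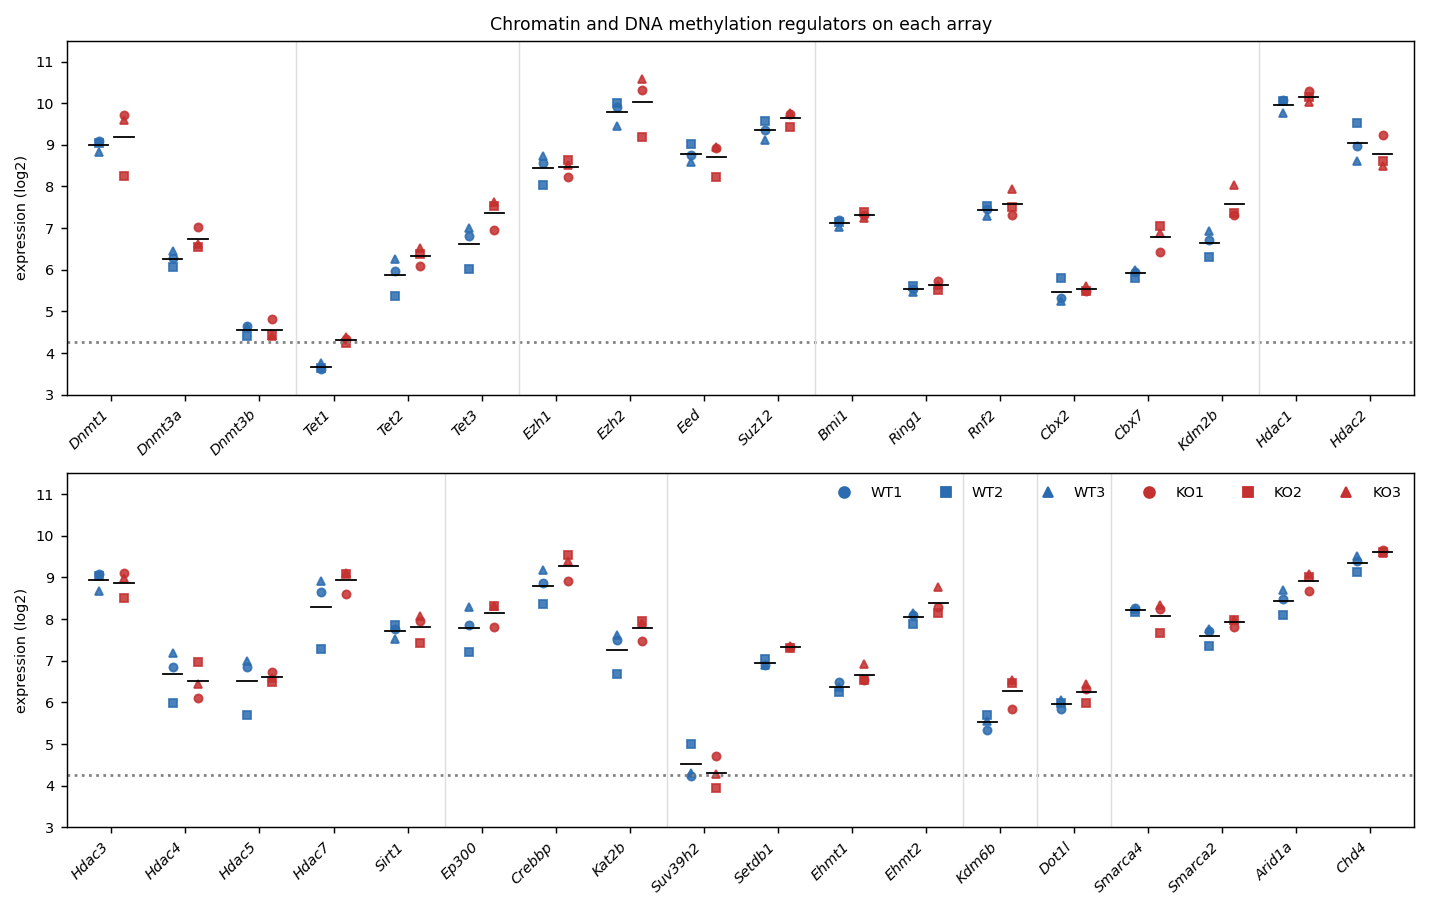
Log2 signal on each of the 6 arrays, for the 36 members in order of role. Points are arrays, bars are group means and the dotted line is the table's median (4.26), and for Tet1, Cbx7, Kdm2b and Kdm6b every KO point lies above every WT point.

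Of the H3K9 methyltransferases, Setdb1, which silences endogenous retroviruses, had the smallest p. It stood at 6.91, 7.05 and 6.89 in WT and at 7.32, 7.30 and 7.36 in KO. The KO arrays lay close together and above WT, but the difference of 0.38 (SE 0.13, 95% interval 0.08 to 0.68, adjusted p 0.268) was below 1.5-fold. Ehmt1 and Ehmt2, which act as a pair on H3K9, had differences of 0.29 and 0.35, the former without overlap. Suv39h2, of constitutive heterochromatin, was near the table's median on all arrays, with a difference of -0.20. Dot1l, the H3K79 methyltransferase, stood at 5.84, 5.97 and 6.05 in WT and at 6.33, 5.98 and 6.45 in KO. KO2 was within WT, and the difference was 0.30 (SE 0.17, adjusted p 0.456).

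The 7 histone deacetylases held no call and no separation of the groups. Hdac7, a class II enzyme abundant in T cells, had the smallest p, with 8.65, 7.28 and 8.92 in WT and 8.61, 9.07 and 9.11 in KO. The difference of 0.65 (SE 0.42, 95% interval -0.35 to 1.65, adjusted p 0.514) is larger than that of Tet1, but WT2 stood 1.51 below the mean of WT1 and WT3 and the other arrays lay between 8.61 and 9.11. Hdac1, of several corepressor complexes, and Hdac3, of the NCoR complex, had differences of 0.19 and -0.06 with 95% intervals inside a 1.5-fold change. Hdac2 had -0.26, Hdac4 -0.17, Hdac5 0.08 and the NAD-dependent enzyme Sirt1 0.11, each with overlapping groups. The other row of Hdac4 gave -0.56.

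All 3 histone acetyltransferases had WT2 more than 0.5 below the mean of WT1 and WT3, and none was called. Kat2b, an enzyme of the SAGA family, stood at 7.50, 6.68 and 7.62 in WT and at 7.48, 7.97 and 7.90 in KO. KO1 fell within WT, and the difference was 0.51 (SE 0.28, adjusted p 0.444). The coactivators Crebbp and Ep300 had differences of 0.47 and 0.36 (adjusted p 0.445 and 0.596), with overlap in both.

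Among the chromatin remodellers, Arid1a, a subunit of SWI/SNF complexes, had the smallest p, with 8.48, 8.11 and 8.71 in WT and 8.69, 9.01 and 9.08 in KO. KO1 lay just under WT3, and the difference was 0.49 (SE 0.20, 95% interval 0.02 to 0.97, adjusted p 0.333). The SWI/SNF motors differed in sign, Smarca2 with 0.32 and no overlap of groups, and Smarca4 with -0.14 and overlap. Chd4, the motor of the NuRD complex, had KO at 9.60 to 9.66 and WT at 9.13 to 9.51, a difference of 0.28 (adjusted p 0.436).

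The spread within each genotype was not even over the members. In WT, 10 members were more than 0.5 lower on WT2 than on the mean of WT1 and WT3, which is 27.8% of the list and 12.6% of all tested genes. These were Tet2, Tet3, Ezh1, Kdm2b, Hdac4, Hdac5, Hdac7, Ep300, Crebbp and Kat2b. The class II deacetylases had the widest gaps, -1.51 for Hdac7, -1.22 for Hdac5 and -1.03 for Hdac4. For Tet1, Cbx7 and Setdb1 the same gap was -0.06, -0.18 and 0.15.

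In KO, 7 members were more than 0.5 lower on KO2 than on the mean of KO1 and KO3, which is 19.4% of the list and 19.2% of all tested genes. Dnmt1 led them with a gap of -1.40, followed by Ezh2 (-1.26), Eed (-0.72), Smarca4 (-0.62), Sirt1 (-0.60), Suv39h2 (-0.54) and Hdac3 (-0.53). Dnmt1 and Ezh2, chosen here after their values were seen, are both known to be abundant in dividing cells. Dnmt1 stood at 9.09, 9.05 and 8.83 in WT and at 9.71, 8.26 and 9.60 in KO. KO1 and KO3 were above all of WT and KO2 below all of it. Ezh2 went the same way, with 9.91, 9.998 and 9.45 in WT and 10.33, 9.19 and 10.58 in KO.

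Cell cycle genes were low on the same array. Over 34 tested S phase genes the mean deviation from each gene's average was -1.23 on KO2, against 0.64 on KO1, 0.49 on KO3 and -0.44 to 0.49 in WT. Over 48 tested G2/M genes it was -1.28 on KO2, 0.55 on KO1, 0.67 on KO3 and -0.33 to 0.21 in WT. Mki67, a proliferation antigen, stood at 8.52 on KO2 and at 10.2 and 10.6 on the other KO arrays, Top2a, the topoisomerase of dividing cells, at 9.49 against 11.2 and 11.1, Pcna, the DNA polymerase clamp, at 9.90 against 11.3 and 11.2, and Mcm5, of the replicative helicase, at 6.22 against 8.78 and 8.45. Without KO2, Dnmt1 and Ezh2 had differences of 0.66 and 0.67 and passed the study's threshold (adjusted p 0.194 and 0.305). With the mean of the G2/M genes as a covariate they had 0.22 and 0.27, and the same 5 members passed as without it. That mean set KO2 apart from KO1 and KO3 but averaged nearly the same in both genotypes. The covariate could therefore hardly move a difference, and the fit cannot show whether the calls depend on cell division. The part of cell division in the differences of the other members was not tested.

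**Figure D3:**
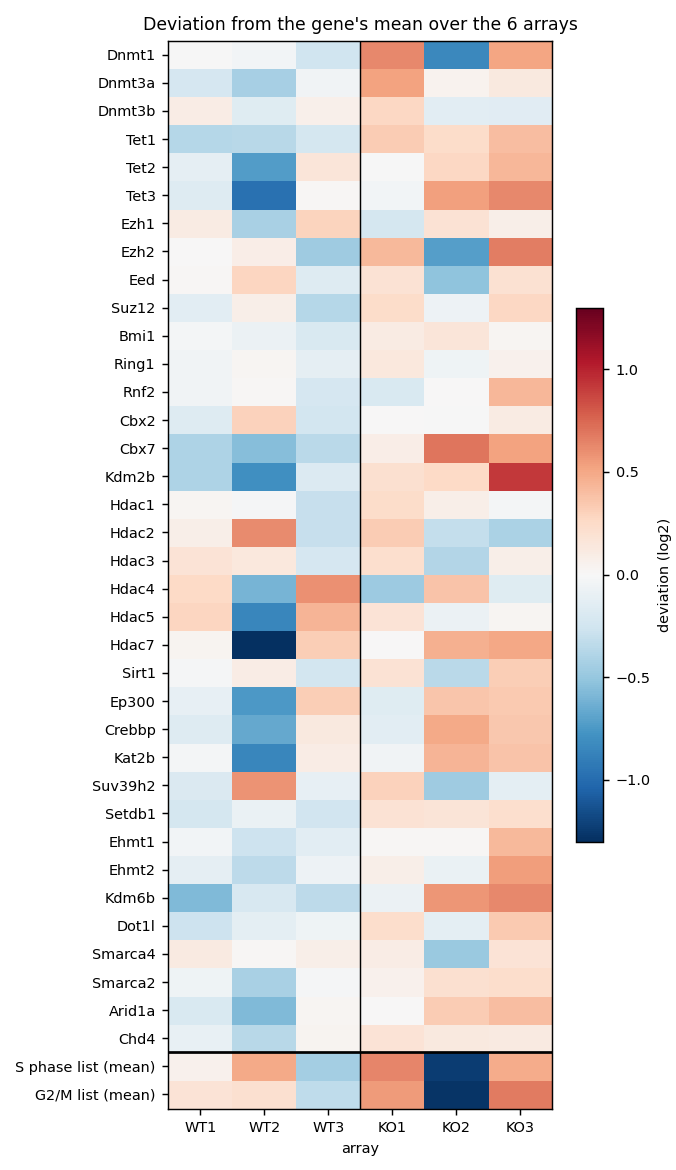
Deviation of each member (rows, by role) on each array (columns) from its mean over the 6 arrays, in log2 units, with cell cycle list means below. Dnmt1 and Ezh2 are lowest on KO2, as are the S phase and G2/M means (-1.23 and -1.28), and the class II deacetylases Hdac4, Hdac5 and Hdac7 are lowest on WT2.

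A wider list of 135 further chromatin genes was written by function, also with earlier results of these arrays known. A row was found for 127, and 121 were tested. The median difference was 0.13, with 86 positive and 35 negative. At the study's threshold 11 were higher (9.09%, against the 3.97% of all tested genes) and 0 lower. The count moved when 1 array was left out, to 3 higher and 0 lower without KO3, 3 higher and 1 lower without WT2, and 17 higher and 1 lower without WT3. In these fits 2.76%, 2.48% and 5.07% of all tested genes were higher. At the adjusted threshold limma called 0, with 14 higher and 3 lower at an unadjusted p of 0.05, where 6.96% and 7.14% of all tested genes were. Groups did not overlap for 17 higher (14.05%, near the 11.6% of all tested genes) and 5 of the 121 lower, where 10.9% of all tested genes lay lower.

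Chd3, the NuRD motor related to Chd4, had the largest difference of those called. It stood at 7.65, 7.22 and 7.86 in WT and at 8.73, 9.72 and 9.02 in KO. The groups were well apart, KO2 the highest, and the difference was 1.58 (SE 0.29, 95% interval 0.89 to 2.26, adjusted p 0.0765), where that of Chd4 was 0.28. Of the other remodellers, Chd6 and the SWI/SNF subunit Arid2 had 0.84 and 0.60 with no overlap.

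Among the acetyltransferases of the wider list, the nuclear receptor coactivator Ncoa3 stood at 8.60, 8.33 and 8.77 in WT and at 9.19, 9.59 and 9.53 in KO. All KO arrays were above WT, and the difference was 0.87 (SE 0.18, adjusted p 0.112). Kmt2a, an H3K4 methyltransferase, stood at 8.30, 7.18 and 8.80 in WT and at 8.73, 9.54 and 9.14 in KO. KO1 was below WT3 and WT2 far below the rest, and the difference was 1.05 (SE 0.42, adjusted p 0.332). The demethylases Kdm3b and Kdm5a had 0.73 and 0.64, the former without overlap. Around Polycomb, Asxl1 and Asxl2, partners of the H2A deubiquitinase, and Scmh1 each had 0.64 with no overlap.

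The 3 genes that were lower at an unadjusted p of 0.05 did not reach 1.5-fold. They were Pcgf2 (-0.49) and Pcgf6 (-0.41), both relatives of Bmi1 in variants of complex 1, and the deacetylase Hdac10 (-0.46), each with KO below WT on all arrays. They are named after their values were seen, as are Uhrf1, which brings Dnmt1 to copied DNA, the remodeller Hells and the heterochromatin protein Cbx5, which stood on KO2 at 6.16, 7.19 and 7.01 and on each other array at 7.71 or above. The Y-linked demethylases Kdm5d and Uty stood at 3.68 and 3.91 on WT1 and at 5.92 to 8.27 on the other arrays, beside the high Xist of WT1, and neither passed the study's threshold.

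**Figure D4:**
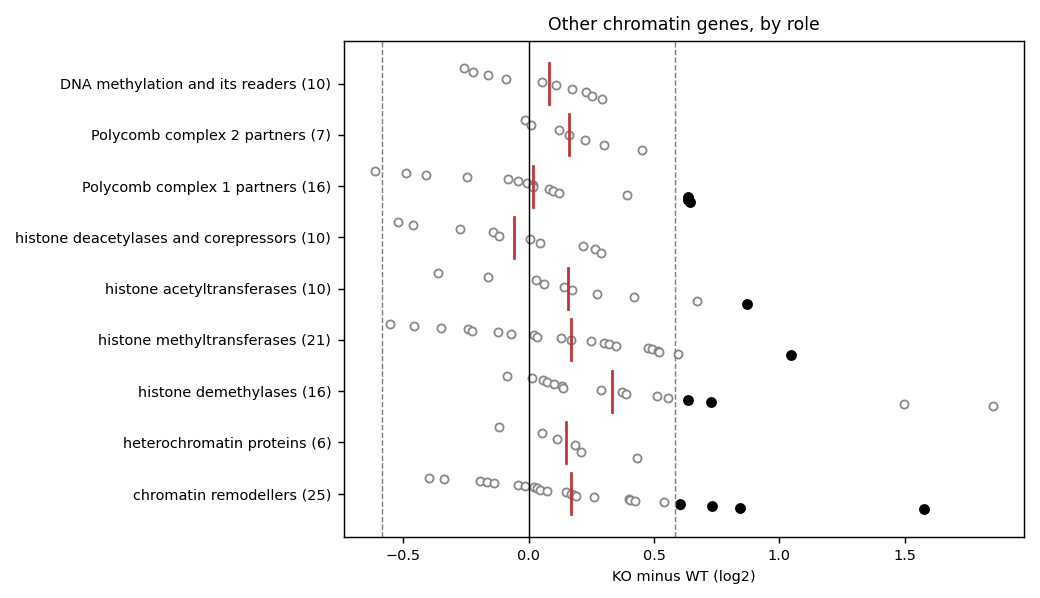
Differences between KO and WT (log2) of the 121 tested genes of the wider chromatin list, by role, 1 point per gene, with genes past the study's threshold filled, medians of roles in red and 1.5-fold lines dashed. The filled points all lie to the right of 0, from 0.60 for Arid2 to 1.58 for Chd3.

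The calls on members were compared over 17 other fits. Cbx7, Kdm2b and Kdm6b passed the study's threshold in 17 of 17, Tet1 in 14 of the 15 in which it was tested and Tet3 in 10 of 17. Tet1 missed the fold under median normalization of the columns (0.57), and it was not tested when the mean over all 6 arrays had to reach the table's median or when a gene's rows were averaged. With arrays weighted by how closely each followed the fit to these same values, limma called 5 members at an adjusted p of 0.05. They were Tet1, Cbx7, Kdm2b, Setdb1 and Kdm6b, among 547 genes in all, as against 63 without weights. Those weights were lowest for KO2 (0.344) and WT2 (0.381) and highest for WT1 (3.10), the array with the high Xist.

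**Figure D5:**
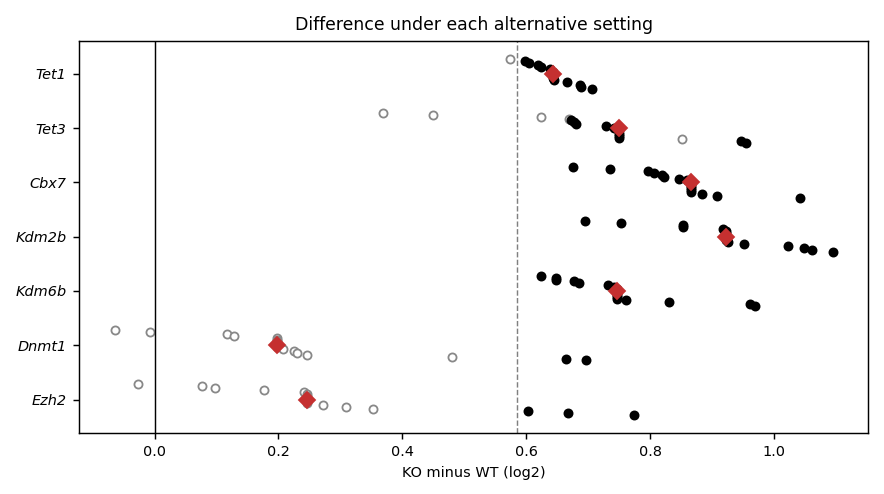
Difference between KO and WT (log2) of the 5 members past the study's threshold, and of Dnmt1 and Ezh2, in each other fit (points, filled where past that threshold) and in the fit of the text (diamonds), with the 1.5-fold line dashed. Cbx7, Kdm2b and Kdm6b stay right of the line in all fits, and Tet3 runs from 0.37 to 0.95.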

How the data were processed

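Total RNA of IL-2-activated CD8-TC was hybridised to Affymetrix mouse gene ST 1.0 arrays, 1 per sample. Per the labels, the authors normalised the arrays in Partek by robust multichip average, and the deposited values are log2 signals, 1 column per array. The sources used here give neither tool versions nor the annotation or background level. Such summaries compress low values, so changes of dim genes are understated.

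Of 35399 rows, 21789 had 1 gene symbol in the platform's gene table, 1621 several and 11989 none. For a gene with several rows, the one with the highest mean over the arrays of the fit stands for it. Genes whose highest value reached the table's median (4.26) were tested, 10021 in all. KO and WT were compared with limma 3.58.1 in R 4.3.3 (lmFit, eBayes, two-sided, no covariate) with Benjamini-Hochberg adjustment over all tested genes. The study's threshold was applied to the unadjusted p of the same fit, since its test is not named. P-values set each difference against the spread between these biological repeats, with variances moderated over all tested genes. The fit was tested on simulated data. The members and lists were chosen with earlier results of these data known.

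All members are named. Values on every array are given for members past a threshold and for the smallest p of each role. Of the wider list, up to 3 genes past the study's threshold per role are named, and 5 of its genes were matched through a synonym. Mki67, Top2a, Pcna and Mcm5 stand for the cell cycle lists. Alternatives were other filters, normalizations, variance priors, array weights, row averaging, a replicate block, a G2/M covariate and arrays left out. Same-numbered WT and KO arrays deviated with correlations of -0.13, -0.37 and -0.13, so the numbers were not taken to pair them. Figures were drawn with matplotlib 3.10.9.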

Additional observations from a re-analysis of the deposited data

How the results depend on the processing

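The median difference of the members stayed between 0.21 and 0.35 over the 17 other fits, and the count of 5 higher members between 4 and 8. Of all tested genes, 1.90% (with no filter) to 5.32% (without WT2 and KO2) were higher. With 1 array left out at a time, higher members ran from 4 to 8 (8 without WT3). Of all tested genes, 2.48% (without WT2) to 5.13% (without KO1) were higher in these fits, with 5.07% without WT3. Members without overlap ran from 11 to 19 (19 without KO1, 18 without KO2, 16 without WT3). Calls on the wider list ran from 3 (without KO3) to 18 (without WT3), with 4 without WT2. The wider list gave 6 calls under median normalization and 4 in an unmoderated linear model. Array weights gave 5 members past the adjusted threshold. Without WT2 and KO2, 22 members did not overlap. At the study's threshold 1 member was lower, Hdac4 (-0.74), where 372 of 9732 tested genes were. Groups of fewer arrays separate more easily. No share of all tested genes was counted beside the members without overlap in the fits with arrays left out. With the replicate block, 4 members were higher, Tet3 losing its call, and 1 of all tested genes passed the adjusted threshold, as against 63. Over all tested genes, median normalization gave 324 higher and 532 lower calls, as against 398 and 434. The causes were not tested.

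Members with small differences changed sign. Under quantile normalization Ring1 had -0.021 and Cbx2 -0.032, and under median normalization Ezh1 had -0.048. With array weights Ezh1 had -0.084, Eed 0.14, Hdac5 -0.18, Suv39h2 0.026 and Smarca4 0.0064. Without WT2 and KO2 Ezh1 had -0.28, Eed 0.27, Hdac2 0.072, Hdac3 0.17, Hdac5 -0.26, Ep300 -0.014, Suv39h2 0.23 and Smarca4 0.042. With 1 array left out at a time, Dnmt1 ran from -0.064 to 0.66, Dnmt3b from -0.14 to 0.064, Ezh1 from -0.19 to 0.17, Ezh2 from -0.026 to 0.67, Eed from -0.22 to 0.15, Rnf2 from -0.016 to 0.30, Cbx2 from -0.032 to 0.24, Hdac3 from -0.18 to 0.12, Hdac4 from -0.66 to 0.086, Hdac5 from -0.32 to 0.33, Sirt1 from -0.025 to 0.31, Suv39h2 from -0.39 to 0.048 and Smarca4 from -0.27 to 0.068. The other members kept their direction. Which row stood for a gene was decided again in each fit. The -0.66 of Hdac4, without KO2, came from its other row, and the row used in the text gave -0.40 there.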
